A study of Mus musculus with 6 samples.

Results

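The genes described here encode subunits of the receptors for GABA, glycine and glutamate, the main fast transmitters of the brain. They were all genes whose symbol belongs to the GABA-A (Gabra, Gabrb, Gabrd, Gabre, Gabrg, Gabrp, Gabrq, Gabrr), GABA-B (Gabbr), glycine (Glra, Glrb), AMPA (Gria), delta glutamate (Grid), kainate (Grik2 to Grik5), NMDA (Grin) and metabotropic glutamate (Grm) families and that had a probe set annotated to that gene alone. Where a gene had several such probe sets, the brightest one over the 6 arrays was used. This gave 45 genes of 22180 with a probe set of their own; other genes of these families were not analysed here. Total RNA came from the ventral midbrain of male mice 2 months of age, either wild type or Bach1 knockout, with 3 Affymetrix arrays per genotype. No other allele or agent is named for either group, and how the knockout allele was built is not stated in the labels. Whether each array had an animal of its own is not stated, so the p-values speak only of the spread among these arrays, whose small number limits the precision.

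GABA-A and glycine receptors are chloride channels built from several subunits, and the subunit mix sets where a receptor sits in the cell, how long the channel conducts and which drugs it binds. GABA-B receptors and the metabotropic glutamate receptors act through G proteins, while AMPA, kainate and NMDA receptors are cation channels opened by glutamate. In the ventral midbrain, inhibitory input from the striatum and from local GABA neurons and excitatory input from cortex and subthalamic nucleus meet on the dopamine neurons.

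The deposited values were log2 levels for 41345 probe sets, with array medians of 5.58 to 5.69. The Bach1 probe set did not read lower in the knockout group (7.59, 7.68 and 7.70, against 7.46, 7.59 and 7.57 on the wild-type arrays), so its arrays are called knockout-labelled. Hmox1, a gene that BACH1 represses, was at 8.50, 8.22 and 8.41 against 6.51, 6.46 and 6.32 (limma, adjusted p = 0.0181, and 0.134 to 0.233 with any 1 array left out). The dopamine neuron markers Th and Slc6a3 were present on every array, at 11.02 to 11.49 and 11.69 to 12.17. Region markers differed between arrays. The score of a marker list is the mean over its genes of the log2 level minus the mean of the 6 arrays. The 7 measured markers of cortex and hippocampus scored 0.43 on knockout-labelled replicate 2, and the 6 of thalamus scored 0.38 on wild-type replicate 1. Striatal markers, of which 4 were measured, scored 0.35 and 0.36 on wild-type replicates 2 and 3. The 7 measured markers of hypothalamus reached a minimum of -1.28 on knockout-labelled replicate 3 and a maximum of 1.21 on wild-type replicate 3.

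No subunit gene passed the test between the genotypes. Limma called 0 of the 45 at an adjusted p under 0.05 over all probe sets, where 0.00726% of probe sets were called, and 1 of the 45 had an unadjusted p under 0.05, against 6.51% of all genes. The means were higher on the knockout-labelled arrays for 18 genes and lower for 27, where 46.9% of all genes lay higher and 53.1% lower. The split depended on the scaling: with each array centred on its median, 11 of the 45 were higher and 34 lower, while 33.9% of all genes were higher and their median was -0.057. It also depended on single arrays, with 24 higher and 21 lower without knockout-labelled replicate 3 and 16 and 29 without knockout-labelled replicate 2. The median log2 difference of the 45 was -0.024 (0.0028 without knockout-labelled replicate 3, -0.050 without knockout-labelled replicate 2), while the median over all 22180 genes was -0.0098. Bright genes were also set apart, with a probe set mean above 5.07, the 40th percentile of all probe sets. Of these, 39.0% of the 41 members and 40.7% of all 15790 genes were higher. Their medians were both -0.024, and 61.0% and 59.6% of the differences were smaller than 0.1. Of the 45 differences, 27 (60%, against 52.8% of all genes) were smaller than 0.1 on the log2 scale. The 95% intervals reached a median of 0.35 to either side, against 0.27 over all genes. All 3 knockout-labelled arrays lay apart from all 3 wild-type arrays for 3 genes (6.67%), Gabra3, Gabrg3 and Gabrb2, against 14.3% of all genes. For 0 of the 45 genes was the difference of means larger than the range within both groups, against 7.11% of all genes. Both shares depend on the spread within the groups, which was wider for the 45. Their median SDs were 0.17 on the knockout-labelled and 0.16 on the wild-type arrays, against 0.12 and 0.11 for all genes. Inhibitory receptor genes were lower for 16 of 23 and glutamate receptor genes for 11 of 22, and with centred arrays these counts were 17 of 23 and 17 of 22.

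**Figure D1:**
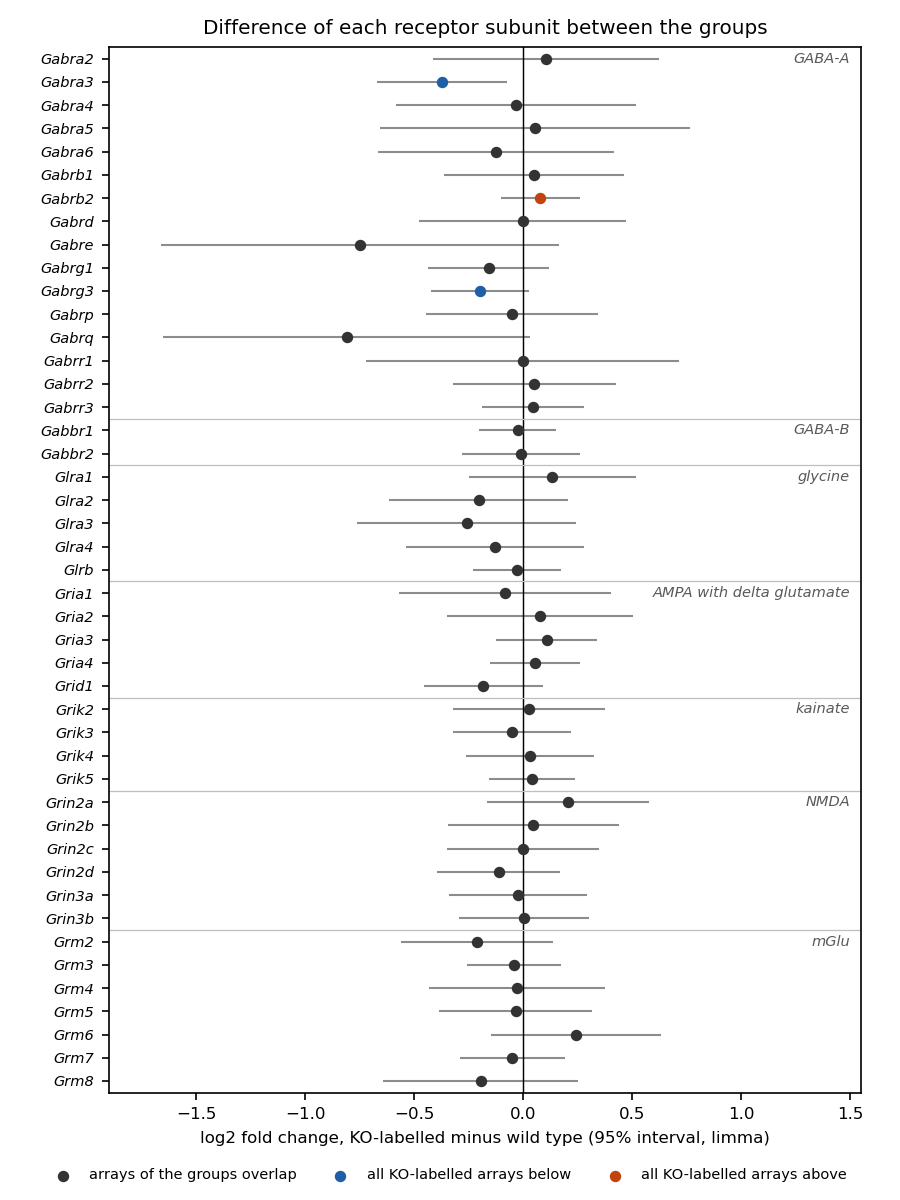
Log2 fold change of each of the 45 receptor subunit genes, knockout-labelled minus wild type, with the 95% interval of limma from 3 arrays per group, ordered by receptor class. Gabra3 and Gabrg3, in blue, had all knockout-labelled arrays below the wild-type arrays and Gabrb2, in orange, had them above; the widest intervals belong to Gabre and Gabrq.

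The levels give the signal of each subunit's probe set in this tissue, and whether a transcript was detected was not tested. A level belongs to its probe set, and probe sets bind with different strength, so levels of different genes are not ordered here. The 40th percentile of all probe set means, 5.07, served as the limit for dim probe sets. Means of 41 of the 45 genes lay above it, and so did those of 15790 of all 22180 genes. Those below were Gabra6, a subunit of cerebellar granule cells, at 2.73 to 3.38, Gabrp, known mainly from tissues outside the brain, at 4.04 to 4.61, Gabrr3 at 4.02 to 4.26, and Grm6, the receptor of retinal ON bipolar cells, at 4.78 to 5.44. For these the arrays give little more than a dim signal.

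**Figure D2:**
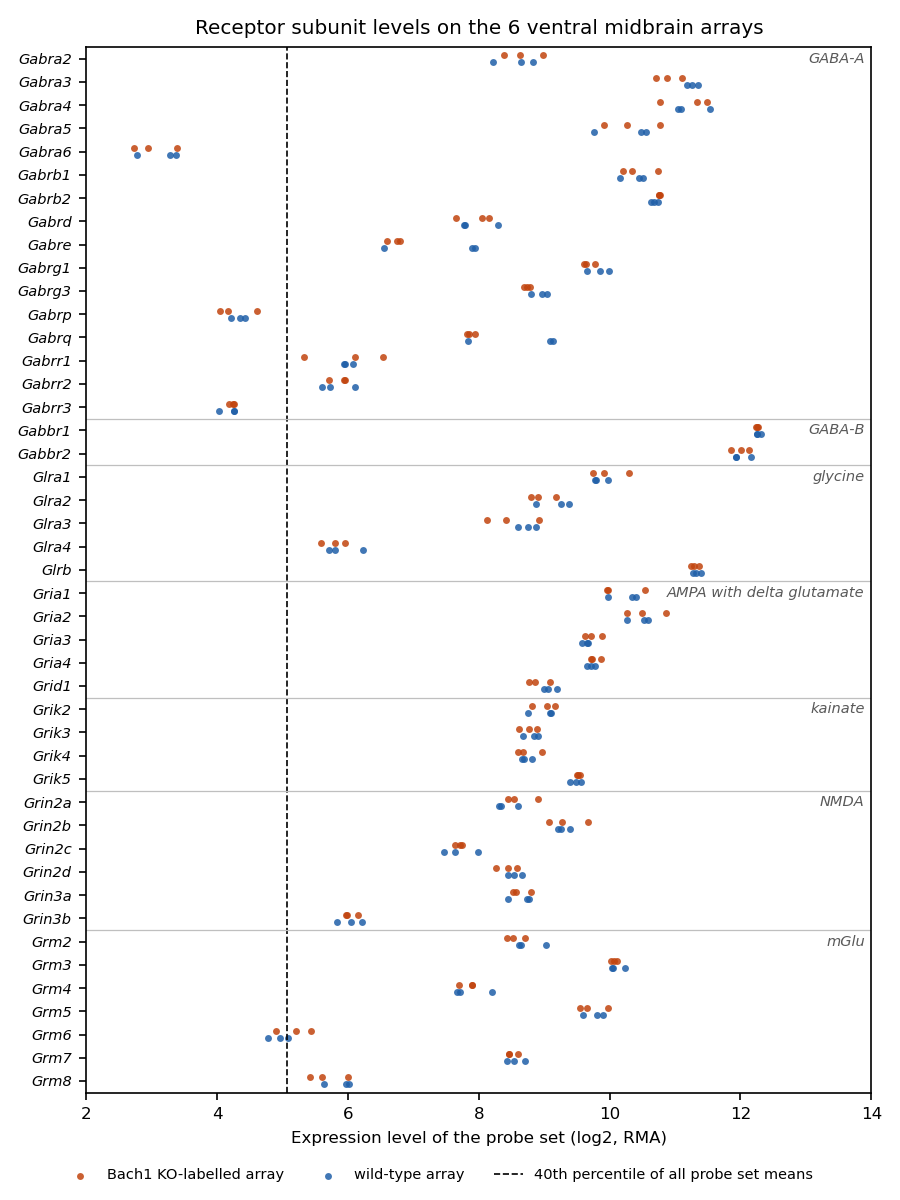
Log2 level of the probe set of each receptor subunit gene on every array, grouped by receptor class, with orange points for the 3 knockout-labelled and blue points for the 3 wild-type arrays. The points of both groups overlap for nearly all genes; Gabre and Gabrq each show a pair of wild-type arrays well above the other arrays.

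Among the alpha subunits of the GABA-A receptor, which help to form the GABA site, Gabra3 was the member with the smallest p of all 45 genes. It was at 11.10, 10.88 and 10.70 on knockout-labelled replicates 1 to 3 and at 11.18, 11.36 and 11.26 on wild-type replicates 1 to 3. Every knockout-labelled value was below every wild-type value, although the gap between knockout-labelled replicate 1 and wild-type replicate 1 was narrow. The means were 10.89 ± 0.20 and 11.27 ± 0.087 (SD, n = 3 each), a log2 fold change of -0.37 (SE 0.12, 95% interval from -0.67 to -0.072). Limma gave an adjusted p of 0.557, which misses the threshold. Gabra3 is known from monoamine neurons, dopamine neurons among them. In bulk tissue, fewer cells of a type and less RNA per cell cannot be told apart, and the dopaminergic markers themselves scored 0.091, -0.13 and 0.23 on the knockout-labelled and -0.033, 0.0085 and -0.17 on the wild-type arrays. The hypothalamic score was -0.010, -0.17 and -1.28 on the knockout-labelled and -0.15, 0.40 and 1.21 on the wild-type arrays, lowest on knockout-labelled replicate 3 as Gabra3 was. The part of either in the Gabra3 values was not tested.

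Gabre and Gabrq, the epsilon and theta subunits, lie on the X chromosome on either side of Gabra3 and are known from hypothalamus and brainstem. Gabrq read 7.95, 7.82 and 7.86 in the knockout-labelled group and 7.84, 9.08 and 9.13 on the wild-type arrays. Gabre read 6.75, 6.79 and 6.59 against 6.55, 7.94 and 7.89. In both genes wild-type replicates 2 and 3 were high, and wild-type replicate 1 lay within or just below the knockout-labelled values, so the groups overlapped. The log2 fold changes were -0.81 for Gabrq (95% interval from -1.65 to 0.034; limma, adjusted p = 0.614) and -0.75 for Gabre (95% interval from -1.66 to 0.17; adjusted p = 0.647), neither of which passed. Without wild-type replicate 1 they were -1.23 (adjusted p = 0.289) and -1.20 (adjusted p = 0.415), and without wild-type replicate 2 they were -0.61 and -0.50. Gabre was singled out after its values were seen.

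The striatal score was 0.35 and 0.36 on wild-type replicates 2 and 3, -0.38 on wild-type replicate 1 and 0.051, -0.26 and -0.12 on the knockout-labelled arrays. This score and the hypothalamic one were higher on wild-type replicates 2 and 3 than on the other arrays, as Gabre and Gabrq were. The same holds for the 6 markers of meningeal fibroblasts, which scored 0.43 and 0.40 on that pair, -0.49 on wild-type replicate 1 and 0.075, -0.43 and 0.021 on the knockout-labelled arrays. All 6 were above the limit for dim probe sets, and so were the 4 striatal and the 7 hypothalamic markers. The hypothalamic score also ran low on knockout-labelled replicate 3, where Gabrq did not stand apart. Their part in the values of Gabre and Gabrq was not tested.

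The RefSeq sequence before the transcription start is shown for the genes of this cluster because the outer pair varied together over the arrays and the middle gene did so less. Each run holds the 250 bases before the start, and capitals mark a match to the antioxidant response element core, TGACNNNGC, the kind of site that NRF2 and BACH1 share.
Gabre (GRCm38.p6, chrX:72274722-72274971, minus strand): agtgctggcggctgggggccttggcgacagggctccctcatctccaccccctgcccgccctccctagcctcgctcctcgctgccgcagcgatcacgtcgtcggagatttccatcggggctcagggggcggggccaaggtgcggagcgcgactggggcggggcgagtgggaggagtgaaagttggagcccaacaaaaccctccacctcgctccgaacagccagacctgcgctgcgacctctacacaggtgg
Gabra3 (GRCm38.p6, chrX:72656808-72657057, minus strand): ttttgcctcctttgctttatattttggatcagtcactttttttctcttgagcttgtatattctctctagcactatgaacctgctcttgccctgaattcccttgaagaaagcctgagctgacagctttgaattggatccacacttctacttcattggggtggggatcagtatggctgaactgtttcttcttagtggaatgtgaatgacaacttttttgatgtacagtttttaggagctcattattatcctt
Gabrq (GRCm38.p6, chrX:72824928-72825177, plus strand): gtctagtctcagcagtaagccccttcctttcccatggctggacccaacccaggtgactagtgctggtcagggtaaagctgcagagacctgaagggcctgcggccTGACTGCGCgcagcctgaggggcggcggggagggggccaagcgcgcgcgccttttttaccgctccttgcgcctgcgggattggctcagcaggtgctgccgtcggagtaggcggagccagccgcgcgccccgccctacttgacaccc
The windows of Gabre and Gabrq were 68.8% and 67.2% G and C and held 21 and 19 CpG pairs. The Gabra3 window shown was 39.2% G and C and held 0 CpG pairs, and the window of its other RefSeq start was 42.4% with 0. A single match stood in Gabrq, on the strand shown, 146 bases before the start.

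Of the 45 genes, 35 had promoter windows in the RefSeq table, 42 windows in all. The response element core, searched on both strands, was in 5 of the 42 windows (11.9%), those of Gabrb2, Gabrq, Grin2d, Grin3b and Grm6, against 10.2% of all 32851 windows. A palindromic activator core, TGANTCA, was in 2 of 42 (4.76%), of Grin3b and Grm8, against 6.75% of all. These shares are near those of all windows. A match says only that these letters occur, and the values of the genes that hold one went both ways.

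Gabra2, Gabra4, Gabrb1 and Gabrg1 form another cluster of neighbours, and here adjacent genes took different courses over the arrays. Gabra2 read 8.38, 8.98 and 8.63 on the knockout-labelled and 8.21, 8.82 and 8.64 on the wild-type arrays. Gabra4, an alpha subunit of extrasynaptic receptors in thalamus and striatum, read 11.34, 11.48 and 10.76 against 11.53, 11.04 and 11.10. Gabrb1 read 10.21, 10.74 and 10.33 against 10.16, 10.52 and 10.45. Gabra2 and Gabrb1 were lowest on wild-type replicate 1, where Gabra4 was highest, while all 3 were highest within their group on knockout-labelled replicate 2. The gamma subunit gene Gabrg1 read 9.64, 9.61 and 9.77 against 9.65, 9.86 and 9.99, with its highest values on wild-type replicates 2 and 3.

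Gabra4 and Gabrb1 are shown because their first RefSeq starts lie 387 bases apart on opposite strands. The windows sit in one stretch of the chromosome, and from these starts the transcripts run towards each other. Gabrb1 has another RefSeq start, and which start its probe set reads is not known.
Gabra4 (GRCm38.p6, chr5:71658309-71658558, minus strand): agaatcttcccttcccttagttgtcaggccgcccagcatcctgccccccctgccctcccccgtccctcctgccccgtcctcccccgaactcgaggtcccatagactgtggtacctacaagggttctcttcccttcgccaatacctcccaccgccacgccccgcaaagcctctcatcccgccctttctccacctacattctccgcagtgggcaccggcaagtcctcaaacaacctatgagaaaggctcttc
Gabrb1 (GRCm38.p6, chr5:71657671-71657920, plus strand): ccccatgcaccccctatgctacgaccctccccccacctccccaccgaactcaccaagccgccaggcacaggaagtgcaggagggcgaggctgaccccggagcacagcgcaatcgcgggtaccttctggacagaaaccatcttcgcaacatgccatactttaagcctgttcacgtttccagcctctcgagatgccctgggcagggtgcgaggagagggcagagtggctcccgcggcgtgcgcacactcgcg
Neither window held a match to the response element core or to TGANTCA. They were 61.2% and 64.4% G and C, with 12 and 18 CpG pairs. The window of the other Gabrb1 start (chr5:71699682-71699931) was 50.8% G and C, with 6 CpG pairs and no match.

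Within the cluster of Gabra5 and Gabrg3, the groups separated for Gabrg3 alone. Gabrg3 read 8.69, 8.78 and 8.74 on the knockout-labelled arrays and 8.80, 9.04 and 8.96 on the wild-type arrays. The gap was narrow at knockout-labelled replicate 2 and wild-type replicate 1, and the unadjusted p was above 0.05. Gabra5, a subunit of extrasynaptic receptors in hippocampus and deep cortex, read 9.91, 10.77 and 10.27 against 9.76, 10.55 and 10.48. Its values ranged over 1.01 on the log2 scale, with the highest on knockout-labelled replicate 2 and the lowest on wild-type replicate 1.

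Gabrb2, a beta subunit of synaptic GABA-A receptors, had the tightest knockout-labelled values of the GABA-A genes, at 10.76, 10.78 and 10.76 against 10.74, 10.63 and 10.68. All were above the wild-type values, but by little at wild-type replicate 1. Gabrd, whose product replaces gamma in extrasynaptic receptors, read 8.15, 8.04 and 7.66 against 8.29, 7.77 and 7.79, with group means of 7.95 in both. The rho genes Gabrr1 and Gabrr2, best known from retina, ranged from 5.33 to 6.54 and from 5.60 to 6.10, and the extremes of Gabrr1 were both on knockout-labelled arrays. Over the 16 GABA-A genes, 6 means were higher and 10 lower on the knockout-labelled arrays.

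The subunits of the GABA-B receptor, which needs both of its proteins to reach the surface and signal, had group means close to each other. Gabbr1, which carries the GABA site, read 12.25, 12.26 and 12.23 against 12.31, 12.25 and 12.25. Its log2 fold change of -0.024 had a 95% interval of -0.20 to 0.15. Gabbr2, which couples to the G protein, read 12.01, 12.14 and 11.86 against 12.16, 11.93 and 11.94, and had a log2 fold change of -0.0097 (95% interval from -0.28 to 0.26). Its sign changed without knockout-labelled replicate 3 (0.060), without wild-type replicate 1 (0.064) and with array weights (0.0043).

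Glycine receptors carry inhibition mainly in brainstem and spinal cord and are also present in midbrain. Of the 5 genes, 1 mean was higher and 4 were lower on the knockout-labelled arrays, and 0 were called. Glra3 read 8.41, 8.13 and 8.91 against 8.60, 8.87 and 8.76, a log2 fold change of -0.26 (95% interval from -0.76 to 0.24; limma, adjusted p = 0.764). The knockout-labelled arrays held both its highest and its lowest value, and the fold change was -0.081 without knockout-labelled replicate 2 and -0.47 without replicate 3. Glra2, the subunit most abundant before birth, read 8.80, 8.91 and 9.18 against 8.87, 9.38 and 9.25, a log2 fold change of -0.20 (95% interval from -0.61 to 0.20; adjusted p = 0.772). Here too wild-type replicates 2 and 3 were the highest arrays. The fold change of Glra2 was -0.096 without wild-type replicate 2, -0.35 without wild-type replicate 1, -0.12 without knockout-labelled replicate 1 and -0.31 without knockout-labelled replicate 3.

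Glra1, the main adult subunit, read 9.91, 9.74 and 10.29 against 9.97, 9.78 and 9.79. Only knockout-labelled replicate 3 stood above the wild-type range, and without it the log2 fold change moved from 0.13 to -0.021. The dopaminergic marker score was highest on the same array, at 0.23, and so was that of the hindbrain and serotonergic list, at 0.18. Of the 7 measured genes of the latter list, 6 lay under the limit for dim probe sets. The microglial and endothelial scores were also highest on that array, at 0.12 and 0.10. The part of these cell types in the Glra1 values was not tested. Glrb, whose product anchors the receptor to gephyrin, read 11.37, 11.24 and 11.29 against 11.40, 11.27 and 11.31, a log2 fold change of -0.029 (95% interval from -0.23 to 0.17) that turned positive without knockout-labelled replicate 2 (0.0015) and without wild-type replicate 1 (0.0078). Glra4 was at 5.59 to 6.23.

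AMPA receptors carry fast excitation, and the product of Gria2 makes them impermeable to calcium. Gria2 read 10.26, 10.86 and 10.49 on the knockout-labelled and 10.26, 10.58 and 10.53 on the wild-type arrays. Gria1 read 9.96, 10.54 and 9.98 against 9.97, 10.41 and 10.34. Both genes had their highest value on knockout-labelled replicate 2 and low values on the first replicate of each group. The log2 fold change of Gria2 was 0.078 (95% interval from -0.35 to 0.51; limma, adjusted p = 0.928), and it was -0.083 without knockout-labelled replicate 2, -0.021 without wild-type replicate 1 and -0.18 without both.

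Gria3 and Gria4 varied less. Gria3 read 9.63, 9.88 and 9.71 against 9.65, 9.67 and 9.57, a log2 fold change of 0.11 (95% interval from -0.12 to 0.34; limma, adjusted p = 0.785), with knockout-labelled replicate 1 inside the wild-type range. It was 0.039 without knockout-labelled replicate 2 and 0.17 without knockout-labelled replicate 1. Gria4 stayed between 9.66 and 9.87 on all 6 arrays. Grid1, a delta receptor that binds cerebellins at synapses, read 8.85, 9.08 and 8.77 against 9.00, 9.06 and 9.20. Knockout-labelled replicate 2 lay among the wild-type values, and the log2 fold change of -0.18 (95% interval from -0.46 to 0.091) did not pass (adjusted p = 0.705). Without knockout-labelled replicate 3 it was -0.12, and without both knockout-labelled replicate 2 and wild-type replicate 1 it was -0.31.

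The 4 kainate receptor genes had differences from -0.050 to 0.042 on the log2 scale. Of these 3 means were higher and 1 lower, and with centred arrays all 4 were lower. Grik5, a high-affinity subunit that works with others, read 9.51, 9.54 and 9.50 against 9.39, 9.56 and 9.48 (95% interval of the difference -0.16 to 0.24). Grik3 read 8.76, 8.61 and 8.89 against 8.67, 8.84 and 8.90 (95% interval from -0.32 to 0.22). The groups overlapped for both, and both differences changed sign under an alternative setting, to -0.0018 for Grik5 without wild-type replicate 1 and to 0.022 for Grik3 without knockout-labelled replicate 2. Grik2, a principal pore-forming subunit, ranged from 8.75 to 9.16 and Grik4 from 8.60 to 8.97, each lowest on the first replicate of a group and highest on knockout-labelled replicate 2.

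NMDA receptors combine an obligatory subunit with regulatory ones that set calcium entry and timing. Grin2a, which speeds the decay of the current in mature neurons, read 8.53, 8.90 and 8.44 against 8.61, 8.31 and 8.34. Its log2 fold change of 0.21 (95% interval from -0.17 to 0.58; limma, adjusted p = 0.746) fell to 0.068 without knockout-labelled replicate 2, the highest array. Grin2b, the slower counterpart, was also highest on that array, at 9.66, and lay between 9.07 and 9.39 on the others. The cortex and hippocampus score of 0.43 on knockout-labelled replicate 2 exceeded the next highest, 0.13 on wild-type replicate 2, and its part in these values was not tested.

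Grin2d, the regulatory subunit known from midbrain and diencephalon, read 8.45, 8.26 and 8.59 against 8.66, 8.44 and 8.53, a log2 fold change of -0.11 (95% interval from -0.39 to 0.17; limma, adjusted p = 0.822). The lowest array was knockout-labelled replicate 2, the reverse of Grin2a and Grin2b. Its fold change was -0.024 without that array, -0.055 without wild-type replicate 1, 0.032 without both, and -0.19 without knockout-labelled replicate 3. A second, dimmer probe set of Grin2d gave a log2 fold change of 0.021. Grin2c, a subunit of cerebellar granule cells and astrocytes, read 7.74, 7.71 and 7.63 against 7.98, 7.64 and 7.46, and Grin3a and Grin3b, which lower calcium permeability, ranged from 8.44 to 8.80 and from 5.84 to 6.21. None of these separated the groups. The Grin2c log2 fold change was 0.00014, while its second probe set, under the limit for dim probe sets at a mean of 4.14, gave -0.25.

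Of 7 metabotropic glutamate receptor genes, 1 mean was higher and 6 were lower on the knockout-labelled arrays. Grm2, an autoreceptor of glutamate terminals, read 8.53, 8.43 and 8.70 against 8.62, 9.03 and 8.65. Wild-type replicate 2 was the array apart, and without it the log2 fold change moved from -0.21 (95% interval from -0.56 to 0.14; limma, adjusted p = 0.724) to -0.078. Grm6 had the highest log2 fold change of all 45 genes, 0.24 (95% interval from -0.15 to 0.63; adjusted p = 0.718), at 5.20, 5.44 and 4.90 against 5.08, 4.78 and 4.95. These levels sit at the limit for dim probe sets, and the value was 0.11 without knockout-labelled replicate 2 and 0.38 without knockout-labelled replicate 3. Its other probe set, at a mean of 3.24, gave 0.14.

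Grm5, which couples to calcium release, read 9.55, 9.98 and 9.66 against 9.59, 9.89 and 9.80. Grm3, found on astrocytes as well as neurons, stayed between 10.02 and 10.23. Grm4, a presynaptic group III receptor, read 7.90, 7.90 and 7.69 against 8.21, 7.66 and 7.71, with wild-type replicate 1 above all other arrays. Grm7 lay between 8.44 and 8.70 and Grm8 between 5.41 and 6.01.

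The highest and lowest values of the 45 genes fell unevenly over the arrays. Knockout-labelled replicate 2 was the highest array for 13 of the 45 genes (28.9%) and the lowest for 14 (31.1%), against 17.0% and 24.6% of all genes. Wild-type replicate 1 was the highest for 11 (24.4%, against 18.2% of all genes) and the lowest for 8 (17.8%, against 14.2%). Knockout-labelled replicate 1 was the highest for 1 gene (2.22%, against 14.9%).

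**Figure D3:**
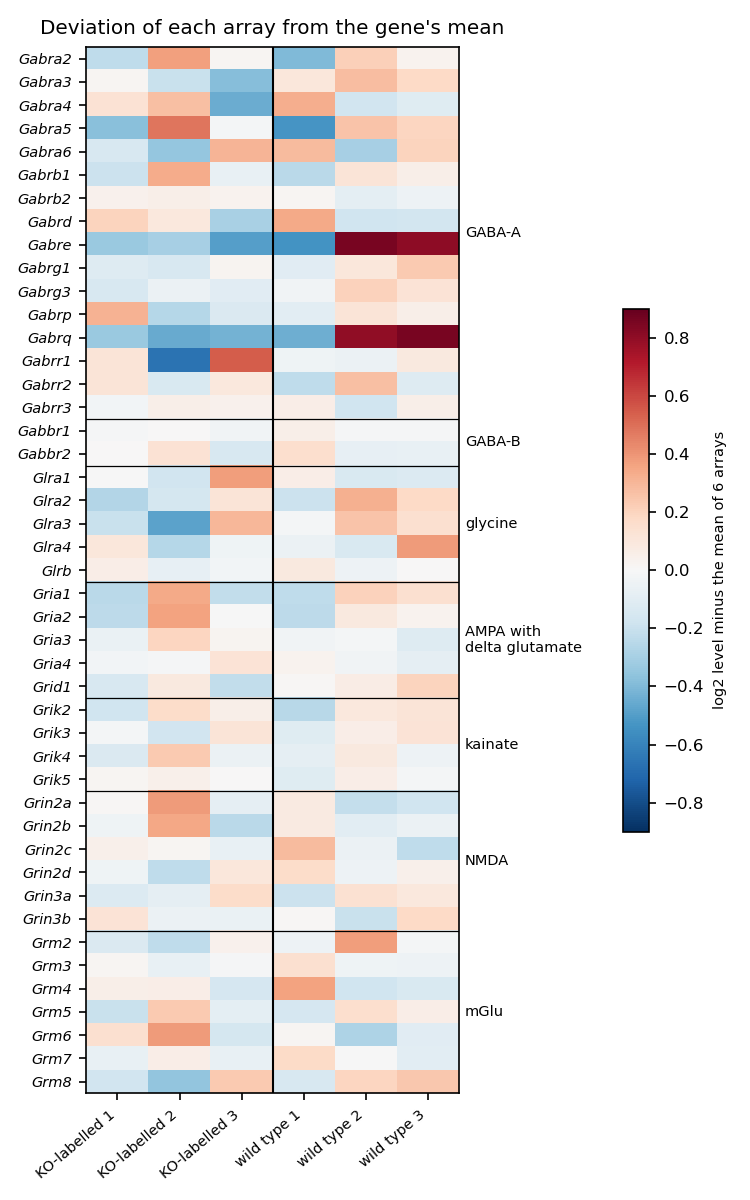
Log2 level of each receptor subunit gene on each array minus the mean of the 6 arrays, as a colour from -0.9 (blue) to 0.9 (red), with knockout-labelled arrays left of the vertical line and wild-type arrays right of it. Gabre and Gabrq are dark red on wild-type replicates 2 and 3 alone, while Gabra2, Gabra5, Gabrb1, Gria1 and Gria2 are red on knockout-labelled replicate 2 and blue on the first replicate of each group.

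Gabra5, Gria1, Gria2 and Grm5, grouped after their values were seen, were each highest on knockout-labelled replicate 2, next highest on wild-type replicates 2 and 3, and low on the first replicate of both groups. The cortex and hippocampus score was 0.43 on the array where they were highest, 0.13 and -0.033 on wild-type replicates 2 and 3, -0.17 on knockout-labelled replicate 3 and -0.18 and -0.17 on the first replicates. Another set, Gabra4, Gabrd, Grm4 and Grin2c, was picked, after the values were seen, from the 11 genes highest on wild-type replicate 1. The thalamic score on that array was 0.38, against -0.26 and -0.23 on the other wild-type arrays. Those scores were 0.049, 0.091 and -0.028 on the knockout-labelled arrays, with the lowest on replicate 3, where Gabra4, Gabrd, Grm4 and Grin2c were also lowest of that group. The cerebellar score was also highest on wild-type replicate 1 (0.062) and lowest on knockout-labelled replicate 3 (-0.062). The oligodendrocyte score was highest on wild-type replicate 1 too, at 0.12, but lowest on knockout-labelled replicate 2, at -0.19. The part of any of these tissues or cell types in these courses was not tested.

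**Figure D4:**
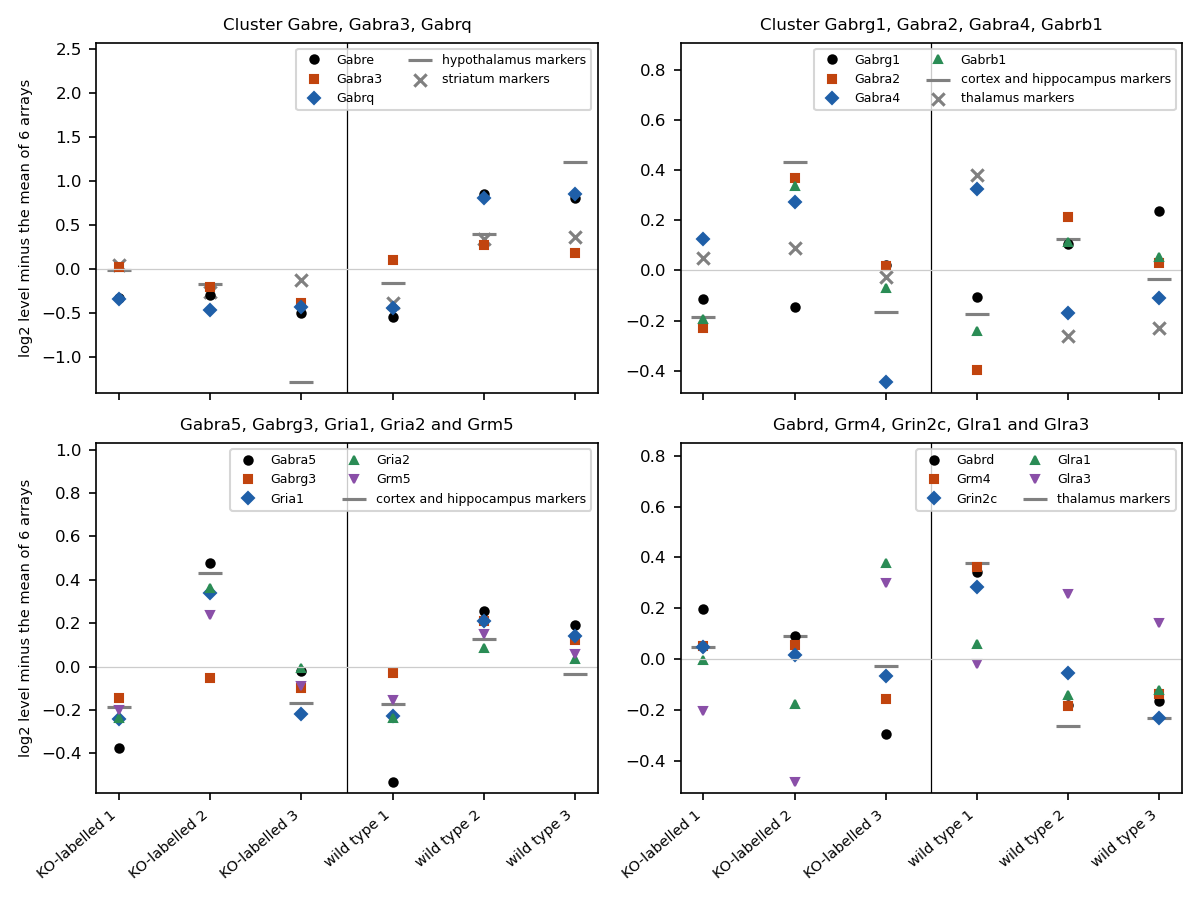
Log2 level minus the mean of the 6 arrays for the genes of the Gabre and Gabrg1 gene clusters (top) and for further subunits chosen after their values were seen (bottom), with the scores of region marker lists in grey; the vertical line divides knockout-labelled from wild-type arrays. Gabre and Gabrq are high on wild-type replicates 2 and 3, Gabra5, Gria1, Gria2 and Grm5 peak on knockout-labelled replicate 2, and Gabrd, Grm4 and Grin2c peak on wild-type replicate 1.

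Genes for the proteins that hold these receptors at synapses were also read. Of 13 measured scaffold and auxiliary genes of inhibitory receptors, 6 means were higher and 7 lower (4 and 9 with centred arrays), limma called 0, and 1 had an unadjusted p under 0.05. That gene was Nlgn2, the adhesion protein of inhibitory synapses, at 10.08, 10.07 and 10.03 against 10.33, 10.30 and 10.20. All knockout-labelled values lay below the wild-type values, and the log2 fold change was -0.22 (95% interval from -0.41 to -0.025; limma, adjusted p = 0.573). The groups separated for 3 of the 13 (23.1%, against 14.3% of all genes), 2 below and 1 above. Lhfpl4, whose product helps place GABA-A receptors, separated in the same direction as Nlgn2, at 8.48, 8.41 and 8.33 against 8.55, 8.58 and 8.52 (log2 fold change -0.14, 95% interval from -0.33 to 0.049; adjusted p = 0.674). Gphn, the gene of the scaffold protein gephyrin, separated in the other direction, at 9.64, 9.65 and 9.70 against 9.58, 9.53 and 9.54 (log2 fold change 0.11, 95% interval from -0.063 to 0.29; adjusted p = 0.71).

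Of 33 measured scaffold and auxiliary genes of glutamate receptors, 11 means were higher and 22 lower (17 higher and 16 lower with renewed quantile normalization, 7 and 26 with centred arrays), and 0 were called or had an unadjusted p under 0.05 (limma). Cbln1, a cerebellin that links delta receptors to neurexins, read 8.67, 8.67 and 9.04 against 8.96, 8.97 and 9.33, a log2 fold change of -0.29 (95% interval from -0.67 to 0.084; adjusted p = 0.664). Nptx2, a pentraxin that gathers AMPA receptors, read 8.45, 8.49 and 8.05 against 8.74, 8.42 and 8.61, a log2 fold change of -0.26 (adjusted p = 0.69). The groups separated for 2 of the 33 (6.06%, against 14.3% of all genes), Cacng3 and Shisa9, both lower on the knockout-labelled arrays. For Cacng3 the highest knockout-labelled and the lowest wild-type value both rounded to 10.243 (log2 fold change -0.052; limma, adjusted p = 0.883). The gap of Shisa9 was also narrow, 10.63 against 10.65 (log2 fold change -0.13; adjusted p = 0.694). The median log2 difference was -0.014 over the inhibitory and -0.029 over the glutamatergic list, beside -0.0098 over all genes.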

How the data were processed

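The values deposited by the authors were log2 levels of probe sets on 6 Affymetrix arrays. RMA had been applied, as the submitters' processing notes state, with version and build not given in the sources used here. That the scale is log2 was read from the values, 0.745 to 14.1. RMA aligns the arrays' distributions, so a shift shared by most genes is removed, and it compresses dim probe sets. Gene names came from a platform annotation, updated through Entrez identifiers to RefSeq (GRCm38.p6; 23328 probe sets matched); 23521 probe sets had 1 gene, 1814 several and 16010 none. All 41345 probe sets were fitted with limma 3.58.1 (lmFit, eBayes, no trend; R 4.3.3) on genotype, and p-values were adjusted with Benjamini-Hochberg over all of them; a probe set was called at an adjusted p under 0.05. The fit was tested on simulated data.

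The members and lists were chosen with earlier results of these data known. Values per array are given for the 2 genes with the smallest p in each receptor class, genes whose groups did not overlap with an unadjusted p under 0.05, and Glra1, Glrb and Gria2 as main or obligatory subunits; other values given per array were chosen after they were seen. Alternatives left out each array in turn and changed the normalization, filter, variance model, array weights, pairing and choice of probe set. Promoter windows are RefSeq sequence. Positions are those of the promoter table, since no build is named in the data.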

Additional observations from a re-analysis of the deposited data

How the results depend on the processing

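The count of subunit genes called was 0 of 45 under every alternative run (0 of the 41 left without dim probe sets), with a smallest adjusted p of 0.289, for Gabrq without wild-type replicate 1. The number of probe sets called over the whole table was 3 in the reported fit, from 0 to 0 with any single array left out, 0 with a replicate block on the shared numbers and 0 without knockout-labelled replicate 2 and wild-type replicate 1 together, an alternative chosen after seeing the data. Same-numbered arrays deviated together only weakly (correlations of 0.086, -0.033 and 0.039 over all probe sets), so the numbers were not taken as pairs, and the block left the members with 0 calls. The median log2 fold change of the 45 genes was -0.071 with each array centred on its median, beside -0.024. Of 18 genes followed through the alternatives, 11 kept their direction in all of them. The sign turned with arrays centred on their median for Grik5 (-0.0048), with array weights for Gabbr2 (0.0043) and, without knockout-labelled replicate 2 and wild-type replicate 1 together, for Grik5 (-0.013), Glrb (0.038), Gria2 (-0.18) and Grin2d (0.032). With 1 array left out in turn, log2 fold changes ran from -0.077 to 0.064 for Gabbr2, from -0.021 to 0.26 for Glra1, from -0.065 to 0.0078 for Glrb, from -0.083 to 0.22 for Gria2, from -0.12 to 0.022 for Grik3 and from -0.0018 to 0.084 for Grik5. The cause was not tested. With 3 arrays per group and no probe-level signal, precision rests on these intervals.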
